A study of Homo sapiens with 12 samples.

Results

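The fibrillar collagen genes are the family members whose protein chains assemble into the banded fibers of connective tissue. The 10 genes described here (COL1A1, COL1A2, COL2A1, COL3A1, COL5A1, COL5A2, COL5A3, COL11A1, COL11A2 and COL24A1) were given as a list of symbols and found by symbol among the 58051 genes of each count table. All 10 were found. The rule that names them uses no measured value, but the list was drawn up with earlier results of these data known. RNA-seq libraries were made from 3 human renal cell carcinoma lines, all established cultures that the labels class as clear cell. In 786-O, 1 library from cells transfected with a miR-29 mimic was compared with 1 library from cells given a control mimic. In A-498 there were 2 libraries of each kind. ACHN cells instead received the miR-29 inhibitor (3 libraries) or the control inhibitor (3 libraries). Every culture received 10 nM of its RNA and was harvested 48 h later, and all groups shared the same transfection reagent and medium. Further A-498 libraries that the study left out as possibly mislabelled are not analysed here.

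Fibrillar collagen chains are made as procollagens, hydroxylated and folded into triple helices in the endoplasmic reticulum, secreted, trimmed of their propeptides and cross-linked into fibrils. Type I collagen is built from the chains of COL1A1 and COL1A2, type II from COL2A1, type III from COL3A1, type V from COL5A1, COL5A2 and COL5A3, and type XI from COL11A1 and COL11A2 with a COL2A1-derived chain. Types V and XI are minor chains that start fibrils and limit their width, and type XXIV (COL24A1) is a late-described member found in developing bone and cornea. Fibroblasts and bone and cartilage cells are the usual sources of these mRNAs, and tumour cells of epithelial origin usually express few of them. miR-29 is a family of microRNAs long known to repress collagen mRNAs by pairing with their 3′ UTRs, and a mimic supplies its activity where an inhibitor blocks it.

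The miR-29 family and the places it can pair are shown first, because the question put to these genes was how their mRNAs moved with more or less miR-29. The mature sequences were taken from RefSeq (GRCh38.p14), and capitals mark the seed, bases 2 to 8, which all 3 share.
hsa-miR-29a-3p: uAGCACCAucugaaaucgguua
hsa-miR-29b-3p: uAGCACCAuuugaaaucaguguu
hsa-miR-29c-3p: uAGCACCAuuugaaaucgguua
The study's text names the mimic as one of miR-29b, the labels say miR-29, and neither mimic nor inhibitor was measured in these libraries. The mature mimic sequence in the study's methods shares the seed but differs from the RefSeq miR-29b-3p after it. Separately, the study measured miR-29b by qRT-PCR in 786-O cells given the mimic. A match was the reverse complement of the seed (TGGTGCT, a 7mer-m8) on the transcribed strand within the first 2000 nt of the longest annotated 3′ UTR, and an 8mer where an A followed it. Of the 10 genes, 9 held at least 1 match and COL11A2 held none. Of 19040 protein-coding genes with a 3′ UTR, 10.8% held a match, and of the 14613 with a searched length in the range of the members, 13.4% did. COL5A1 held 4 matches and COL5A3 held 3, where 0.116% of protein-coding genes held 3 or more. COL3A1 and COL11A1 held 2 each, and COL1A1, COL1A2, COL2A1, COL5A2 and COL24A1 held 1 each. In COL1A1, COL1A2, COL2A1 and COL5A2 the single match was an 8mer, as were both in COL3A1. In all, 7 of the 10 held an 8mer, beside 2.21% of protein-coding genes and 2.74% of those in the members' range of length. The 2 matches of COL11A1, both 7mer-m8, are not printed, although this gene had 22 and 13 reads in 786-O. The matches of the members with enough reads to test in A-498 are printed from GENCODE v44 on GRCh38, with capitals for the seed match. They let the changes reported for each gene be read against its site.
COL1A1, minus strand of chr17:50184572-50184594: tggggagggaatcacTGGTGCTa
COL5A1, plus strand of chr9:134843327-134843349: taactcaatgaaaatTGGTGCTt
COL5A1, plus strand of chr9:134843367-134843389: cttgtggctctcttgTGGTGCTa
COL5A1, plus strand of chr9:134843701-134843723: gttcctgaatgtttgTGGTGCTa
COL5A1, plus strand of chr9:134844082-134844104: gagcctgcggggctcTGGTGCTg
COL5A2, minus strand of chr2:189032873-189032895: tttttcctttaatgaTGGTGCTa
COL5A3, minus strand of chr19:9960352-9960374: agaatggggtgcattTGGTGCTg
COL5A3, minus strand of chr19:9960019-9960041: gcccttcacacctttTGGTGCTa
COL5A3, minus strand of chr19:9959741-9959763: gaatcaggatcctaaTGGTGCTg
COL24A1, minus strand of chr1:85730022-85730044: cctctttgtgttgctTGGTGCTc
All printed sites lie in annotated 3′ UTRs, and the bases before the seed match differ from gene to gene. A match is a description of the letters and was not tested as a binding site.

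**Figure D1:**
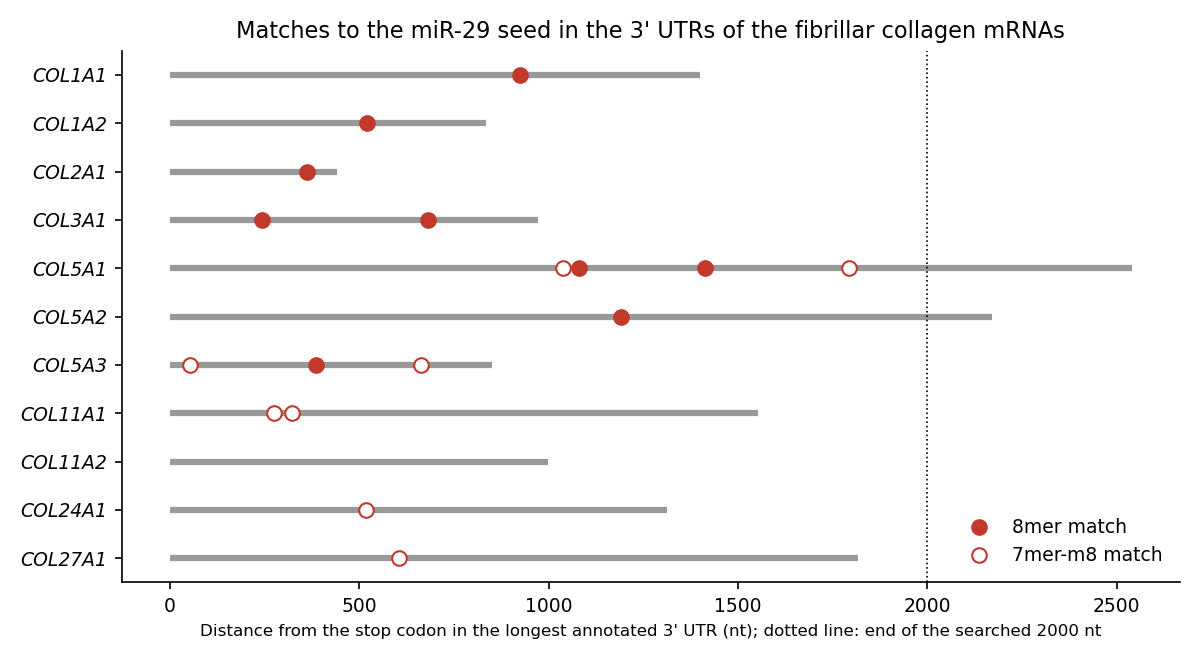
Each grey line is the longest annotated 3′ UTR of a gene, drawn to scale from the stop codon (x axis, nt), with filled circles for 8mer and open circles for 7mer-m8 matches to the miR-29 seed. COL5A1 carries 4 matches between 1039 and 1794 nt, COL5A3 carries 3 between 52 and 663 nt, and COL11A2 carries none.

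Each library held 39919554 to 70027392 reads in genes, so that 3 reads corresponded to between 0.0444 and 0.0767 CPM, the reads of a gene relative to its library's total in genes after TMM scaling. The labelled cell type was checked against 9 renal epithelial carcinoma markers. Within each line, 8 of them were at 1 CPM or more in every library. The exception was CA9 in 786-O and in ACHN, and EPCAM in A-498. The summed level of those markers moved with the agents, from 3472–3649 to 4802–4935 CPM with the mimic in A-498, from 5367 to 6728 CPM with the mimic in 786-O, and from 5560–6011 to 4546–4759 CPM with the inhibitor in ACHN. The sums rest on few genes and do not stand for each marker. In 786-O the sum was mostly VIM, with 4034 and 5246 CPM, while KRT8 had 504 and 486 CPM. In A-498 VIM went from 1683 to 2195 CPM and KRT8 from 1051 to 1466 CPM, while KRT19 went from 10.7 to 8.86 CPM. In ACHN VIM went from 2090 to 1549 CPM and KRT8 from 1842 to 1559 CPM. Endothelial markers summed to at most 0.823 CPM and leukocyte markers to at most 0.401 CPM in any library. Of 4 chondrocyte markers, ACAN averaged at most 0.034 CPM and COL9A1 at most 0.0167 CPM in any group. With the mimic, SOX9 went from 73.6 to 57.6 CPM in 786-O and from 22.0 to 14.5 CPM in A-498. In ACHN SOX9 went from 2.19 to 3.055 CPM with the inhibitor. MATN3 had 5.99 and 5.09 CPM in 786-O, 1.20 and 1.09 CPM in A-498 and 45.5 and 46.9 CPM in ACHN, control first. Of 8 stromal markers, 3 were at 1 CPM or more in the 786-O control, 2 in every A-498 control and 3 in every ACHN control. PDGFRB averaged 5.33, 1.57 and 1.48 CPM in these controls, while PDGFRA averaged at most 0.0952 CPM and DCN at most 0.270 CPM. Single genes of the list were high by line (POSTN in A-498, THY1 in ACHN, LUM in 786-O). In bulk RNA, fewer cells that express a gene and less RNA per cell cannot be told apart.

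The leading gene among the listed fibrillar collagens differed between the lines, while COL1A1, COL5A2 and COL11A2 had at least 10 reads in every control library of all 3. Among the listed genes, COL5A1 was highest in control A-498 cells, COL5A2 in control ACHN cells and COL1A1 in control 786-O cells. The mRNAs of COL1A2, COL2A1 and COL3A1 were at trace level in all 12 libraries. COL1A2, which encodes the partner chain of COL1A1 in type I collagen, had 0 to 4 reads per library. COL2A1, the cartilage collagen, had 0 to 11 reads, and COL3A1, the chain of type III collagen, had 1 to 12 reads. COL1A1 had 35 to 860 reads in the same libraries. COL27A1, a fibrillar collagen outside the list, had 82.8 CPM in the 786-O control, beside 6.655 CPM for COL1A1 there. In the ACHN controls COL27A1 averaged 42.1 CPM, beside 22.7 CPM for COL5A2. In the A-498 controls it averaged 118 CPM, beside 204.5 CPM for COL5A1.

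**Figure D2:**
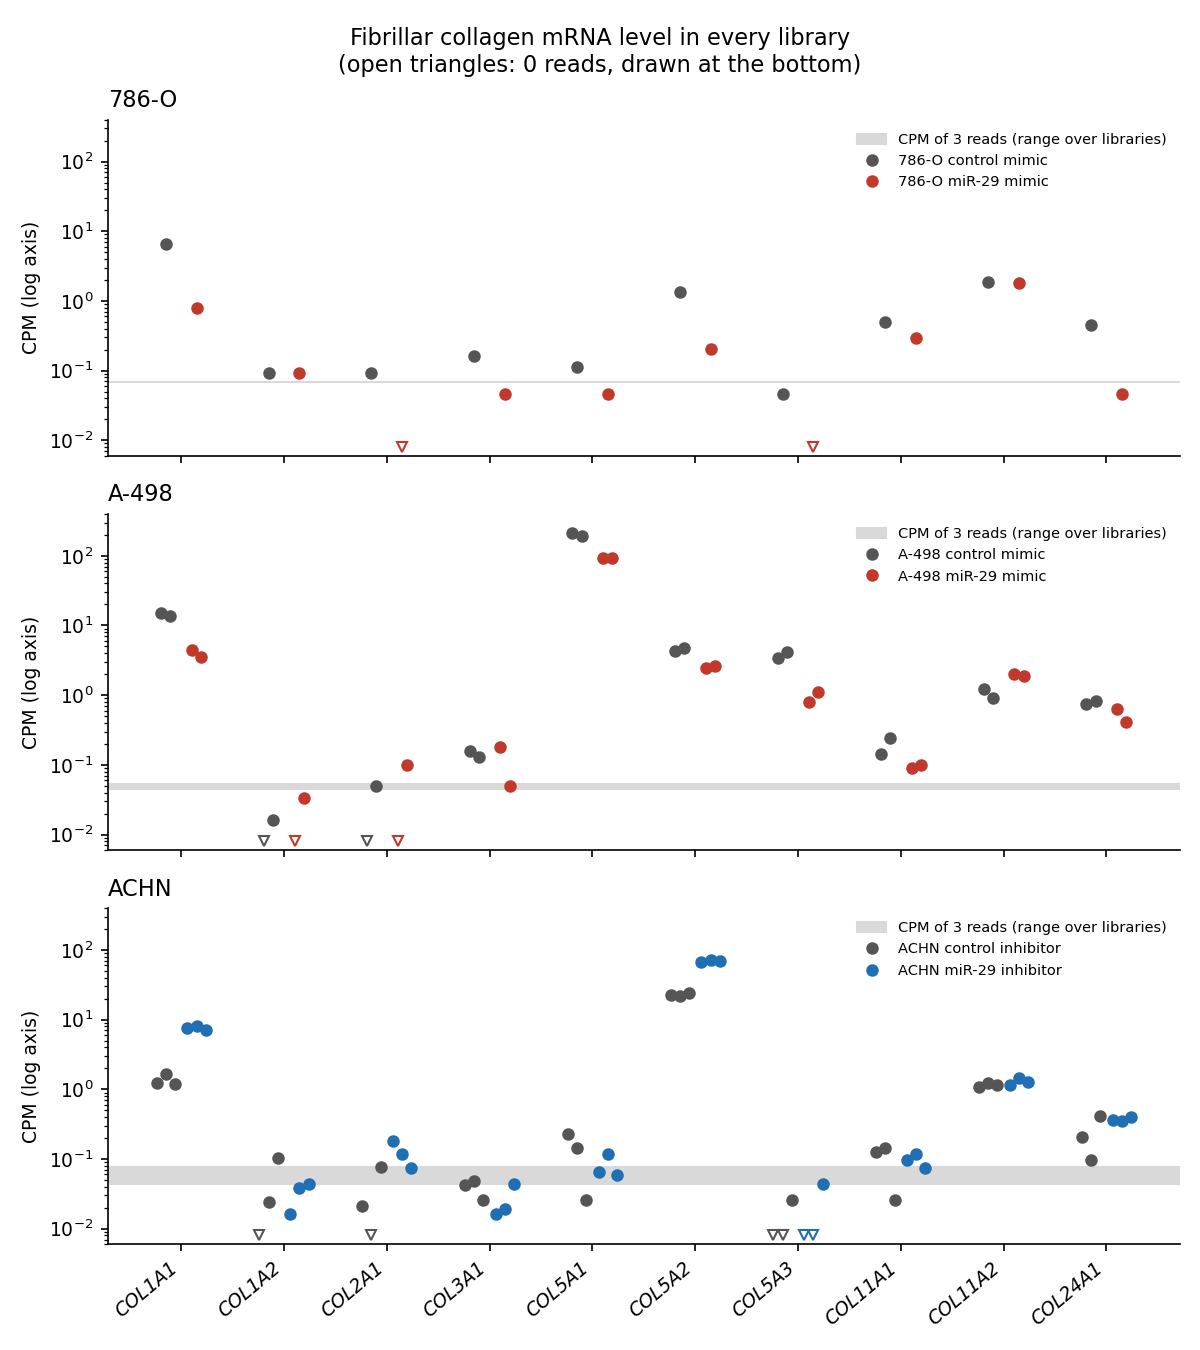
CPM (log axis) of the 10 genes in every library of 786-O, A-498 and ACHN, with control libraries in grey, mimic libraries in red and inhibitor libraries in blue; the grey band is the CPM of 3 reads and open triangles are libraries with 0 reads. COL5A1 stands at 195 to 214 CPM in the A-498 controls and at or below 0.231 CPM in every library of the other lines.

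Levels were compared between the listed genes, without COL27A1, per kilobase of annotated exon. In the control A-498 cells COL5A1 stood at 18.3 ± 1.17 CPM per kb (SD, n = 2), followed by COL1A1 at 1.60 ± 0.131, COL5A2 at 0.624 ± 0.0388, COL5A3 at 0.556 ± 0.0821, COL11A2 at 0.145 ± 0.0293 and COL24A1 at 0.0823 ± 0.00668. The ranges of COL5A2 and COL5A3 overlapped, so their order was not resolved, and every other neighbouring pair was apart in both libraries. In the control ACHN cells COL5A2 stood at 3.10 ± 0.189 CPM per kb (SD, n = 3), with COL11A2 at 0.158 ± 0.0108 and COL1A1 at 0.1501 ± 0.0297. COL11A2 and COL1A1 overlapped there and changed places when the longest transcript was used as the length. In the single 786-O control library the order was COL1A1 at 0.739 CPM per kb, COL11A2 at 0.255, COL5A2 at 0.184, COL11A1 at 0.0553 and COL24A1 at 0.0478.

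The summed level of the 10 genes in the controls was 11.3 CPM in 786-O, 239 and 220 CPM in A-498 and between 24.9 and 27.3 CPM in ACHN. It was 3.33 CPM in the 786-O mimic library, 103 and 104 CPM in the A-498 mimic libraries and between 75.5 and 82.9 CPM in the ACHN inhibitor libraries, so treated and control libraries did not overlap in either replicated line. A single gene carried most of each sum: COL5A1 made up 88.8% to 90.6% of it in A-498 and COL5A2 made up 86.5% to 88.9% in ACHN, with or without the agents. In 786-O the leading gene changed from COL1A1, at 58.7% of the sum, to COL11A2, at 54.1%.

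**Figure D3:**
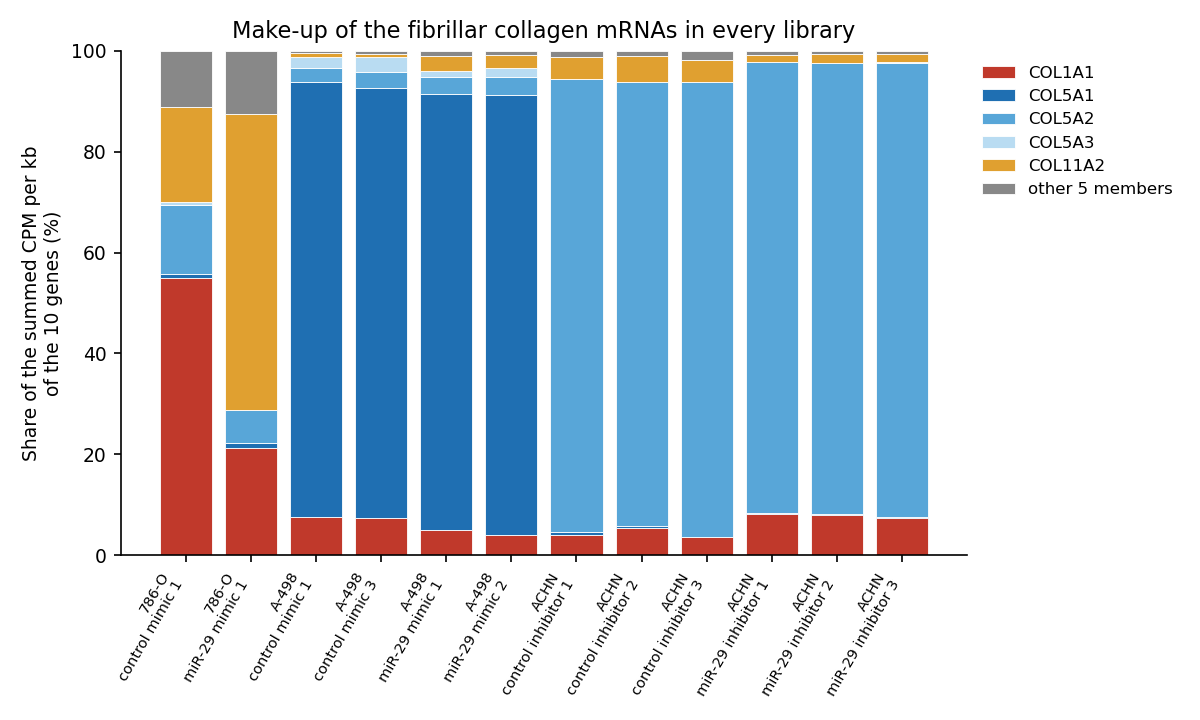
Share (%) of each gene in the summed CPM per kb of the 10 genes, one bar per library. The COL5A1 share stays between 85.2% and 87.2% in A-498 and the COL5A2 share between 88.0% and 90.2% in ACHN, while in 786-O the COL1A1 share is 55.0% in the control and 21.2% in the mimic library.

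The baseline difference between A-498 and ACHN was tested on the control libraries (edgeR quasi-likelihood test with Benjamini-Hochberg adjustment over all genes, as for every adjusted p below). The line and the control agent, a mimic in one and an inhibitor in the other, cannot be told apart in it. Of the 6 members with enough reads, 4 were higher in A-498 and 1 was lower, against 79.8% of all tested genes called in either direction. COL5A1, the main type V chain, had 24050 reads in the A-498 controls together and 18 in the ACHN controls. The log2 difference was 10.52 (adjusted p = 1.02e-23), and the ratio of pooled reads was 1453 with an exact 95% counting interval of 919.5 to 2453. COL5A3 had 446 reads against 1, a ratio of 485 with an exact 95% counting interval of 86.6 to 19210. COL1A1 was higher in A-498 by 3.45 ± 0.119 log2 units (SE; adjusted p = 3.68e-16) and COL24A1 by 1.78 ± 0.363 (adjusted p = 0.000162). COL5A2, the second type V chain, went the other way and fell by 2.27 ± 0.0764 log2 units from ACHN to A-498 (adjusted p = 2.46e-16). The COL11A2 difference was -0.09 ± 0.212, with an interval of -0.53 to 0.36 (adjusted p = 0.713).

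COL1A1, which encodes the main chain of type I collagen, moved with the agent in all 3 lines. In 786-O it had 6.65 CPM in the control library and 0.799 CPM in the mimic library. In A-498 it had 15.2 and 13.5 CPM in the control libraries and 4.38 and 3.50 CPM in the mimic libraries. In ACHN it had 1.22, 1.66 and 1.18 CPM in the control libraries and 7.51, 8.08 and 7.16 CPM in the inhibitor libraries. No treated library overlapped a control library of its line. COL1A1 was 3.64-fold lower with the mimic in A-498 (log2 fold change -1.86 ± 0.107 SE; adjusted p = 3.23e-09) and 5.58-fold higher with the inhibitor in ACHN (log2 fold change 2.48 ± 0.126; adjusted p = 5.41e-11). In 786-O, without replicates and so without a test, the ratio of mimic to control was 0.119, with an exact 95% interval of 0.0812 to 0.169 for counting error alone.

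Of the type V genes, COL5A1 and COL5A3 could be followed in A-498 alone and COL5A2 in all 3 lines. COL5A1 stood at 214 and 195 CPM in the A-498 controls and at 92.2 and 94.3 CPM in the mimic libraries, and was 2.20-fold lower (log2 fold change -1.13 ± 0.0470; adjusted p = 1.19e-10). Its fall from 205 to 93.3 CPM on average was the largest loss in CPM among the members, although its fold change was smaller than that of COL1A1. In 786-O and ACHN, COL5A1 had 1 to 11 reads per library and its change could not be followed at this depth.

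COL5A2, whose chain pairs with COL5A1 in the common form of type V collagen, had 4.37 and 4.77 CPM in the A-498 controls against 2.42 and 2.59 CPM with the mimic. In ACHN it had 22.3, 21.6 and 24.3 CPM in the controls against 66.2, 72.6 and 70.4 CPM with the inhibitor. The groups did not overlap in either line. COL5A2 was 1.83-fold lower in A-498 (log2 fold change -0.87 ± 0.118; adjusted p = 2.26e-05) and 3.06-fold higher in ACHN (log2 fold change 1.61 ± 0.0528; adjusted p = 1.62e-13). In 786-O it went from 59 reads to 9, a ratio of 0.151 (0.0657 to 0.306).

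COL5A3, the third type V chain, was measurable in A-498 alone among the lines, where the controls had 3.38 and 4.16 CPM and the mimic libraries 0.790 and 1.12 CPM. It was 3.98-fold lower (log2 fold change -1.99 ± 0.179; adjusted p = 3.62e-07) in A-498, where COL1A1 had a log2 fold change of -1.86. The other 2 lines had 0 to 3 reads per library, at or under the level of 3 reads. COL5A3 and COL5A1 are the members with 3 and 4 seed matches.

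Of the type XI genes, COL11A2, the member without a seed match, had 1.22 and 0.914 CPM in the A-498 controls and 2.01 and 1.90 CPM in the mimic libraries, and was 1.84-fold higher (log2 fold change 0.88 ± 0.181; adjusted p = 0.000933). In ACHN it had 1.09 to 1.25 CPM in the controls and 1.14 to 1.44 CPM with the inhibitor, groups that overlapped, with a log2 fold change of 0.13 and an interval of -0.22 to 0.48 (adjusted p = 0.606). In 786-O it had 82 reads in the control and 79 in the mimic library, a ratio of 0.952 (0.690 to 1.31). COL11A1, the other chain, had 22 and 13 reads in 786-O, a ratio of 0.584 (0.270 to 1.21), and 1 to 15 reads per library elsewhere.

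COL24A1 was low in every line and its changes were not resolved in the replicated lines. It had 0.742 and 0.833 CPM in the A-498 controls against 0.623 and 0.417 CPM with the mimic, a log2 fold change of -0.59 ± 0.261 (adjusted p = 0.0729, interval -1.15 to -0.03). In ACHN the controls had 0.210, 0.0962 and 0.409 CPM and the inhibitor libraries 0.359, 0.351 and 0.3996 CPM, a log2 fold change of 0.65 ± 0.377 (adjusted p = 0.209, interval -0.14 to 1.44). Control replicate 3 of ACHN lay above all inhibitor libraries, and without it the log2 fold change was 1.22 (adjusted p = 0.0389). Over 11 alternatives in ACHN it lay between 0.29 and 1.22 (adjusted p from 0.0389 to 0.613). Without mimic replicate 1 of A-498 the log2 fold change was -0.93, and without mimic replicate 2 it was -0.34. DESeq2 gave -0.61 in A-498 (DESeq2 adjusted p = 0.334). In 786-O COL24A1 went from 20 reads to 2, a ratio of 0.0988 (0.0112 to 0.407).

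The trace members gave few values to compare. COL2A1 had 1, 0 and 3 reads in the ACHN controls and 11, 6 and 5 reads in the inhibitor libraries, a pooled ratio of 3.91 with a counting interval of 1.33 to 15.6, and was too low to enter the test. COL3A1 had 17 reads in the A-498 controls together and 15 in the mimic libraries, a ratio of 0.827 (0.385 to 1.76). COL3A1 and COL5A2 are neighbours on chromosome 2, converging with 19151 bp between them, and in ACHN COL3A1 kept 1 to 3 reads per library while COL5A2 had 896 to 4756.

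Counted over the list, 6 of the 10 genes had enough reads to test in A-498, and 4 of them were lower and 1 higher with the mimic. Among all 19676 genes tested there, 27% were called lower and 25.5% higher. With library sizes left unscaled the split over all genes was 4352 lower and 6191 higher in place of 5313 and 5015, and the member counts were again 4 and 1. The median log2 fold change of the 6 was -1.004, beside 0.0045 over all genes tested. In ACHN 4 of the 10 were tested and 2 were higher with the inhibitor, where 17.3% of 17904 genes were called higher and 14.4% lower. The number lower was 0 in edgeR, at an unadjusted p under 0.05 in edgeR, and in DESeq2. Their median log2 fold change was 1.13, beside 0.0038 over all genes. In 786-O 5 of the 10 had at least 10 reads over both libraries, 3 of them were lower by more than 2-fold and none was higher by as much, where 9.08% of genes were lower and 6.69% higher past that fold. Their median log2 ratio was -2.47, beside -0.0148 over all genes.

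Calls over all tested protein-coding genes were also split by the presence of a seed match, as a description with no test. In A-498, 57.5% of the 1653 with a match were lower and 18.0% higher, beside 29.98% and 31.6% of the 12109 without. In ACHN, 42.2% of the 1594 with a match were higher and 9.22% lower, beside 18.6% and 19.0% of the 11410 without. The 4 members that fell in A-498 and the 2 that rose in ACHN held an 8mer, as did COL1A2, COL2A1 and COL3A1, which had too few reads to test in either line. Summed stromal markers were also lower with the mimic in A-498, going from 38.8–42.6 to 11.2–12.2 CPM, mostly POSTN, and in 786-O from 26.2 to 15.04 CPM. The sum stood at 203–230 CPM in the ACHN controls and 179–200 CPM with the inhibitor and was mostly THY1, which fell by 0.20 on the log2 scale (adjusted p = 0.00761). Of the 4 stromal markers tested in ACHN, PDGFRB and DCN rose with the inhibitor, PDGFRB from 1.48 ± 0.151 to 2.57 ± 0.399 CPM (adjusted p = 0.000458) and DCN from 0.270 ± 0.0781 to 0.582 ± 0.0828 CPM (adjusted p = 0.00563), and TWIST2 had 3.41 and 3.87 CPM (adjusted p = 0.271). In A-498, PDGFRB and POSTN were lower with the mimic, by log2 fold changes of -1.51 and -1.87. FAP was also tested there and had 1.00 (adjusted p = 0.102). In 786-O, LUM went from 17.95 to 6.30 CPM and PDGFRB from 5.33 to 3.47 CPM, while THY1 went from 2.88 to 5.07 CPM. The part of these markers in the collagen changes was not tested.

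**Figure D4:**
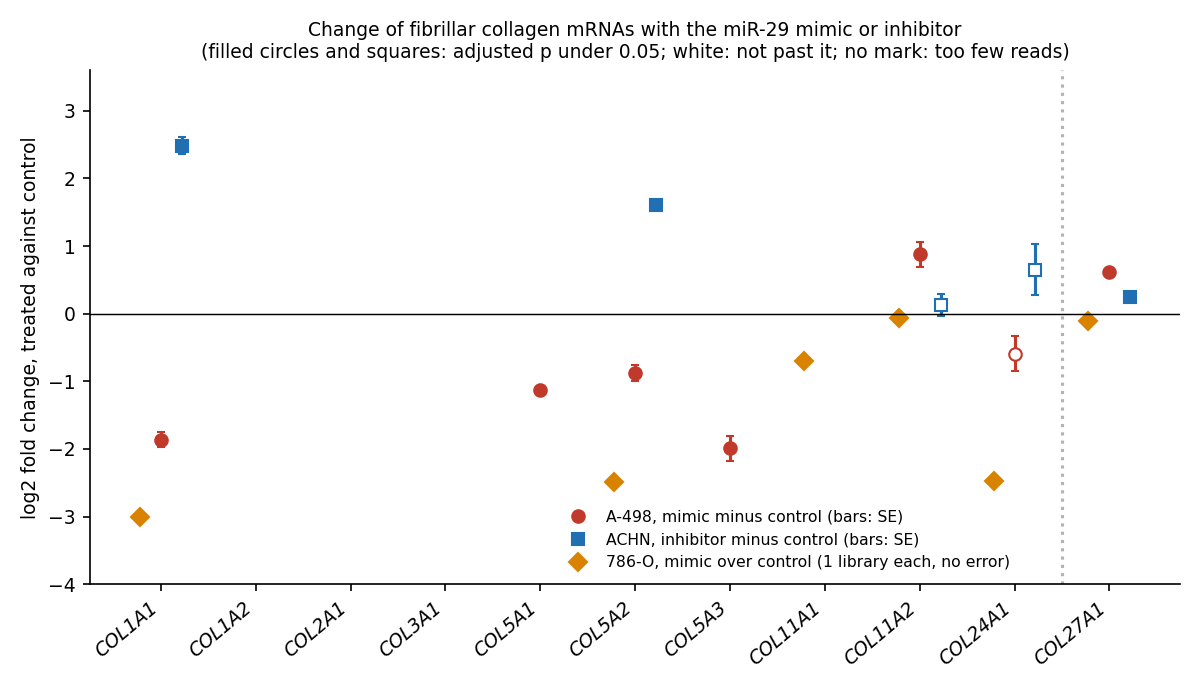
Log2 fold change (treated against control) of the 10 genes and of COL27A1 in A-498 with the mimic (circles, bars are SE), ACHN with the inhibitor (squares, bars are SE) and 786-O with the mimic (diamonds, 1 library each). COL1A1 and COL5A2 lie below 0 with the mimic in both lines and above 0 with the inhibitor, at 2.48 and 1.61, while COL11A2 is higher with the mimic in A-498 at 0.88.

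The mimic effect in 786-O was set against that in A-498. The difference was tested as an interaction, with the spread taken from A-498 because 786-O had 1 library a group. At that spread 4 of 8 members tested were called, against 29.6% of all 22587 genes. With the coefficient of variation between replicates set to 0.2, 0 members and 281 genes were called, so these values are a description of 2 libraries rather than a difference between the lines. The effect in 786-O minus that in A-498, on the log2 scale, was -1.15 for COL1A1 (adjusted p = 0.00484) and -1.79 for COL5A2 (adjusted p = 0.00387). It was -0.89 for COL11A2 (adjusted p = 0.0426) and -2.63 for COL24A1 (adjusted p = 0.0320). The 786-O mimic library had 9 reads of COL5A2 and 2 of COL24A1. Counting error alone put their 786-O ratios at 0.0657 to 0.306 and 0.0112 to 0.407. Without control mimic replicate 3 of A-498 the adjusted p of COL11A2 was 0.0626, and without mimic replicate 1 that of COL24A1 was 0.0582.

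COL27A1, a fibrillar collagen that is outside the list of 10, showed a different pattern. It stood at 118 ± 8.15 CPM (SD, n = 2) in the A-498 controls and at 181 ± 1.58 CPM with the mimic, 1.53-fold higher (log2 fold change 0.62 ± 0.0470; adjusted p = 6.64e-08). In ACHN it stood at 42.1 ± 1.46 CPM in the controls and 49.97 ± 3.85 CPM with the inhibitor (SD, n = 3), 1.18-fold higher (adjusted p = 0.00191), and in 786-O it had 82.8 and 77.4 CPM. Its 3′ UTR holds 1 match, a 7mer-m8. It was thus higher with the mimic in A-498 and with the inhibitor in ACHN.

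The other genes of the collagen pathway were taken from 6 lists, described by counts beside the percentages of all genes given above and with no test of a list. Of 19 genes for hydroxylation and folding, 14 were lower and 3 higher with the mimic in A-498, with a median log2 fold change of -0.78, and 11 were higher and 1 lower with the inhibitor in ACHN, with a median of 0.23. In 786-O 4 of the 19 were lower past 2-fold and 1 higher. SERPINH1, the collagen chaperone HSP47, was lower by a log2 fold change of -1.89 ± 0.0396 in A-498 and higher by 0.95 ± 0.0468 in ACHN. COLGALT1, which glycosylates hydroxylysine, had log2 fold changes of -1.80 and 0.27, and P3H1, a prolyl 3-hydroxylase, had -1.49 and 0.60. P3H4, a component of a lysyl hydroxylation complex, had -1.40 and 0.67. All 4 were called in both lines.

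Of 13 genes for propeptide cleavage and cross-linking, 12 were tested in A-498, with 6 lower and 2 higher, and 11 in ACHN, with 5 higher and 0 lower, the latter also 0 in DESeq2 and at an unadjusted p under 0.05 in edgeR. LOXL2 and LOX, which oxidise lysines for cross-links, had log2 fold changes of -3.58 and -2.19 with the mimic in A-498 and 0.99 and 0.81 with the inhibitor in ACHN. ADAMTS2, which removes the amino propeptide of procollagens, had -2.14 in A-498 and was too low to test in ACHN. BMP1, which removes the carboxy propeptide, had -0.86 and 0.54.

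Of 21 fibril-associated partners, 10 were tested in A-498, with 6 lower and 2 higher (0 higher in DESeq2, at an adjusted p under 0.01 and without mimic replicate 2, and 1 without control replicate 3), and 7 in ACHN, with 4 higher and 1 lower. SPARC, a collagen-binding matricellular protein, had log2 fold changes of -2.35 and 2.13. COL12A1, which decorates fibrils, had -0.74 and 0.17, COL22A1 had -0.67 in A-498 and COL16A1 had 0.33 and 0.69. FN1, fibronectin, was lower in both lines, with -0.28 and -0.38.

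Of 11 collagen receptors, 9 were tested in A-498, with 4 lower and 2 higher, and 8 in ACHN, with 5 higher and 0 lower, again 0 in DESeq2 and at an unadjusted p under 0.05 in edgeR. ITGB1, the shared beta chain of the collagen-binding integrins, had log2 fold changes of -1.70 and 0.18, ITGA11 had -1.41 and 2.09 and ITGA1 had -0.80 and 0.40. DDR2, a receptor kinase for fibrillar collagen, was higher in A-498 by 1.75, and ITGA2 was higher in ACHN by 0.58. Of 8 collagen-degrading enzymes, 2 were lower and 1 higher of 6 tested in A-498, and 1 of 3 tested was higher in ACHN. That gene was MMP14, a membrane-bound collagenase, with -1.46 and 0.64.

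Of the 24 other collagens, which include COL27A1, 19 were tested in A-498, with 10 lower and 5 higher (3 higher in DESeq2, at an adjusted p under 0.01 and without mimic replicate 1), and 17 in ACHN, with 12 higher and 0 lower, the latter 0 in DESeq2 and at an unadjusted p under 0.05 in edgeR as well. COL4A1 and COL4A4, chains of basement membrane collagen, had log2 fold changes of -2.44 and -2.72 with the mimic and 1.59 and 1.28 with the inhibitor. COL8A1 had -1.79 and 0.36, and COL13A1, a transmembrane collagen, was higher in ACHN by 1.22. Over these 6 lists, 33 genes were called in both lines, 28 of them down with the mimic and up with the inhibitor, 1 lower in both and 4 higher in both. Among all 3878 genes called in both lines, 45.2% were down with the mimic and up with the inhibitor and 31.8% the reverse. Of the 675 of them with a seed match, 77.2% were down with the mimic and up with the inhibitor.

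**Figure D5:**
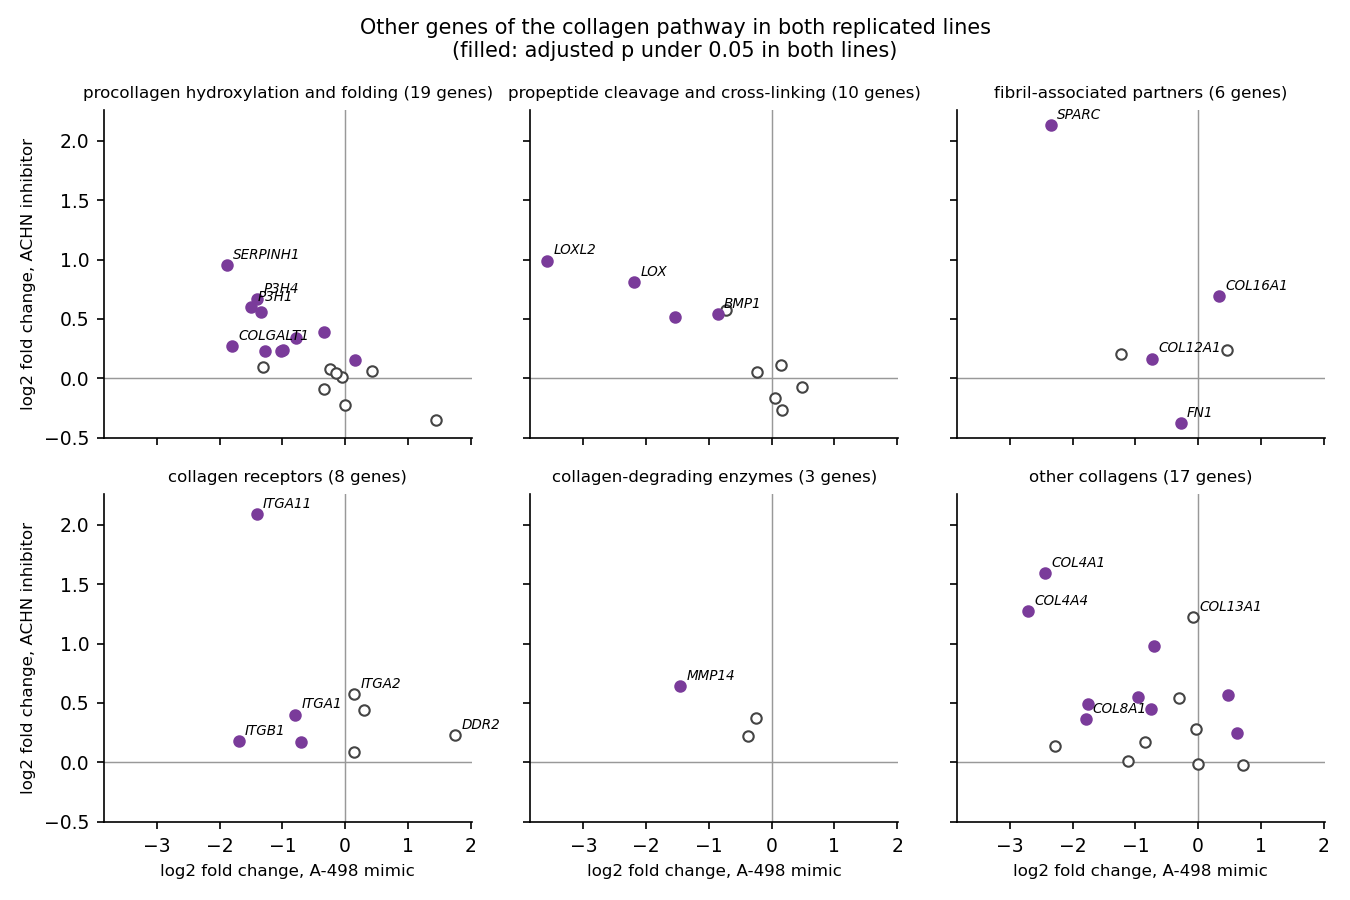
Log2 fold change with the mimic in A-498 (x axis) against that with the inhibitor in ACHN (y axis) for the genes of 6 collagen-related lists tested in both lines, filled where the adjusted p was under 0.05 in both. SERPINH1, LOXL2, SPARC, ITGA11 and COL4A1 lie at the upper left of their panels, and FN1 is below 0 on both axes.

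Likeness to the fibrillar collagens was measured over the 12 libraries as Pearson's r between log2 CPM values centred within each line. COL1A1 and COL11A2 were the members with at least 10 reads in every library, and their mean was the reference. These 2 changed in opposite directions in A-498 (log2 fold changes -1.86 and 0.88), so the mean follows neither gene closely and does not stand for the family. Among 10542 genes the closest were SLC37A1 (r = 0.989), BTN2A2 (0.987), OS9 (0.984), TET3 (0.980) and ALS2CL (0.980). With COL1A1 alone as the reference, a choice made after seeing the data, the closest were C1QTNF6 (0.993), AKAP13 (0.991), HRH1 (0.9903), ENTPD7 (0.989) and ATP7A (0.989), none of which was among the first 5. The libraries share the contrast of treated and control within each line, and r describes that order.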

How the data were processed

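Counts of reads per gene from 12 RNA-seq libraries were analysed. The authors made stranded, ribosomal RNA-depleted libraries, aligned paired reads to GRCh38 with HISAT2 and counted them with HTSeq against an Ensembl annotation by strand, and these whole-number counts were deposited without normalisation. Tool versions are not given in the sources used here. The reads assigned to no gene (37.2% to 48.0% of each library) were left out of library sizes and tests. The authors' tables of their own comparisons (log2 fold changes, standard errors and p-values from DESeq2) were not used. The labels gave all groups.

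Symbols were taken from GENCODE v44 for 56948 of 58051 gene IDs (98.1%). Counts were tested with the two-sided quasi-likelihood test of edgeR 4.0.16 (R 4.3.3) within each line, after TMM scaling and a filter on low counts (filterByExpr), with Benjamini-Hochberg adjustment over all genes tested and a threshold of 0.05. With 1 library a group, 786-O was described by log2 ratios of CPM (prior count 2, at least 10 reads over both libraries) and by exact 95% intervals of the ratio. The CPM values printed used TMM factors over all 12 libraries. Intervals and the level of 3 reads cover counting error only, since no molecular identifiers were described. The SE of a log2 fold change is its absolute value divided by the square root of the test's F statistic. At few reads this SE can be smaller than counting error. Levels per kb used the union of annotated exons. The 17 printed or counted seed matches of the members and COL27A1 were read back from the GRCh38 sequence. Antisense genes overlap exons of COL1A1 and COL5A3, and counting was by strand. Chi-square per degree of freedom between replicate libraries was 3.87 to 12.2, beyond sampling noise, so none was a copy. The study calls them biological replicates, and nothing else ties them to separate cultures, so p-values measure the spread between these libraries. The coefficient of variation between replicates was 3.83% in A-498 and 5.25% in ACHN.

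The members, the gene lists and the markers were chosen with earlier results of these data known. Named genes were all members, COL27A1, in each list the 3 with the largest change among those called in A-498 and in ACHN (average log2 CPM of at least 1), and the 5 closest by likeness (average log2 CPM of at least 3). The tests were checked on counts simulated at a fixed spread near that of A-498 and ACHN. Only genes with many reads were changed there, so the check does not cover low-count members or the unknown spread of 786-O. Alternatives were DESeq2 1.42.0, other scalings, filters and thresholds, each library left out and a replicate block. No protein sequences were used here.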

Additional observations from a re-analysis of the deposited data

Results flagged for a closer look

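For 5 fibrillar collagen genes the response to the mimic in the 786-O libraries passed a test against that in A-498 (edgeR interaction, adjusted over all genes) when the spread of A-498 was used for both. At that spread 29.6% of all 22587 genes tested were called. All 5 were lost with the coefficient of variation between replicates set to 0.2 (adjusted p from 0.232 to 0.770). The effect in 786-O minus that in A-498, on the log2 scale, was -1.15 for COL1A1, -1.79 for COL5A2, -0.89 for COL11A2, -2.63 for COL24A1 and -0.67 for COL27A1. COL1A1 and COL5A2 fell in A-498 and were also below control in 786-O, with log2 ratios of -3.00 and -2.49 in 786-O. COL11A2 was near its control level in 786-O (log2 ratio -0.07) and higher in A-498 (0.88), and COL27A1 had -0.11 and 0.62. COL24A1 rests on 20 reads in the control and 2 in the mimic library of 786-O. Each 786-O group is 1 library, so the line and those libraries cannot be told apart.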

How the results depend on the processing

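Under other scalings, filters, thresholds and DESeq2, and with each library left out, members lower in A-498 numbered 4 or 5 and higher 1, members higher in ACHN 2 or 3, and baseline calls 5, or 6 without the low-count filter. Among members tested in A-498 and ACHN, COL24A1 was the one whose call changed, at no low-count filter in A-498 (-0.62, adjusted p = 0.0478) and without single libraries. The replicate block in ACHN, whose numbers did not pair the libraries (r = 0.11, -0.16 and -0.05 for equal numbers), gave 2 members higher, and 3125 genes higher and 2638 lower in place of 3102 and 2578. The interaction count fell from 4 to 0 with the coefficient of variation set to 0.2 (COL27A1 was lost as well, adjusted p from 0.232 to 0.770 for the 5 genes), since a wider spread was imposed, and was 3 with the spread shared by all 12 libraries, where COL24A1 had an adjusted p of 0.0553. Members lower past 2-fold in 786-O numbered 6 at a minimum of 1 count. Leaving out single libraries changed the sign of values that were not called, COL11A2 between the controls (-0.30 to 0.10) and COL11A1 in the interaction (-0.24 to 0.62). Of the 5 genes closest by likeness, 1 was shared with Spearman's rho, 3 with unscaled library sizes and 0 with COL1A1 alone, an alternative chosen after seeing the data; the cause was not tested. Among the lists, the numbers higher in A-498 moved by over 1.5 times. In DESeq2 they were 1 in place of 2 for propeptide cleavage and cross-linking and 0 in place of 1 for degrading enzymes. For receptors 1 was higher in place of 2 at an adjusted p under 0.01 and without either mimic library. The number lower in ACHN for hydroxylation and folding was 2 in place of 1 without inhibitor replicate 2. DESeq2 called 4420 genes lower and 3500 higher in A-498. Members under about 10 reads per library could not be followed at this depth.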
